A study of Homo sapiens with 6 samples.

Results

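The E2F transcription factors and the retinoblastoma family of pocket proteins were examined in the RNA-seq data, 10 genes of the 53826 entries that every library lists. The members were taken by gene symbol: E2F1, E2F2, E2F3, E2F4, E2F5, E2F7, E2F8, RB1, RBL1 and RBL2. Each symbol occurs once in the files, and the 8 entries named as pseudogenes of E2F or DP genes were listed at the floor in all 6 libraries.

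RNA was sequenced from the PK-1 and Panc-1 lines, human cells established from pancreatic ductal adenocarcinomas, to compare control cells with cells in which the retinoic acid receptor RARγ was blocked. Each line gave a control library, a library of cells treated with RARγi-1 (LY2955303) and a library of cells treated with RARγi-2 (MM11253), both RARγ antagonists, for 24 h. There was 1 library for each of the 6 conditions, so the differences below could not be checked against replicates, and p-values are not given. The libraries were placed by their titles, because the treatment entry says RARγi-1 for the RARγi-2 libraries too, and the doses and the vehicle of the control are not stated.

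The authors deposited log2 values of TPM, the abundance of a transcript per length in a library scaled to a fixed total, with a floor at 1 TPM. An entry "at the floor" had 1 TPM or less. A log2 fold change is log2 of (TPM + 1) after treatment minus log2 of (TPM + 1) in the line's own control, which understates the change of low genes, and "fell" or "rose" is kept for changes past 2-fold on that scale. Between 13149 and 13652 entries per library lay above the floor, and TPM keeps no depth, so no counting error can be given. For want of replicates, the robust standard deviation of the difference between the RARγi-2 and RARγi-1 libraries of a line, over entries with at least 5 TPM, served as a yardstick and is called the spread: 0.41 (log2) for the PK-1 pair and 0.32 for the Panc-1 pair. It also contains real differences between the inhibitors. Rescaling by median ratios would shift the values of PK-1 RARγi-1 by -0.11 (log2), and those of the other comparisons by between -0.09 and 0.05.

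E2F proteins bind the promoters of genes for DNA synthesis and cell division, and set when a cell passes from the G1 phase into the S phase. E2F1, E2F2 and E2F3 are the activators, E2F4 and E2F5 repress together with pocket proteins, and E2F7 and E2F8 are atypical repressors that need neither a pocket protein nor a DP partner. The pocket proteins RB1, RBL1 (p107) and RBL2 (p130) hold E2F proteins back until cyclin-dependent kinases phosphorylate them. E2F1, E2F2, E2F7, E2F8 and RBL1 are themselves known targets of E2F proteins. In pancreatic ductal adenocarcinoma the CDK inhibitor gene CDKN2A, which acts upstream of the pocket proteins, is commonly lost.

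RefSeq promoter windows, 250 bases up to the transcription start, were available for 8 of the 10 members, as 10 windows on GRCh38.p14. The RB1 window lies 172724 bases downstream of the gene's 5′ end in GENCODE 29 and is not shown. It is still counted among the 10 windows below, as is a second window each of E2F3 and RBL2. The 4 windows shown here are those of E2F1, E2F2 and RBL1, which fell with treatment, and of E2F7, which was higher in every treated library. They are read 5′ to 3′ on the minus strand, at chr20:33686386-33686635 for E2F1, chr1:23531234-23531483 for E2F2, chr20:37095998-37096247 for RBL1 and chr12:77065570-77065819 for E2F7. Capitals mark an E2F word, which is TTTCCCGC, TTTCGCGC, TTTGCCGC or TTTGGCGC in either direction.
E2F1: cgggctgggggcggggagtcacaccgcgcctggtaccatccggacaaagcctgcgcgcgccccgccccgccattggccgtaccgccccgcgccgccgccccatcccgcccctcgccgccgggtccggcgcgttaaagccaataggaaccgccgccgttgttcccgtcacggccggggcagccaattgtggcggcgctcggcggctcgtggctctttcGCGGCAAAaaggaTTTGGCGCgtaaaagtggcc
E2F2: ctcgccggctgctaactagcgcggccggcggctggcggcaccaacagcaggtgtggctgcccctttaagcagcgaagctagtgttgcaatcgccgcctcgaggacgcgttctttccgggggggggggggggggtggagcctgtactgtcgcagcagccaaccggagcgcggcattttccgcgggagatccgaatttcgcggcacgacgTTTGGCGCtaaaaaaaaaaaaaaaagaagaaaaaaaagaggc
RBL1: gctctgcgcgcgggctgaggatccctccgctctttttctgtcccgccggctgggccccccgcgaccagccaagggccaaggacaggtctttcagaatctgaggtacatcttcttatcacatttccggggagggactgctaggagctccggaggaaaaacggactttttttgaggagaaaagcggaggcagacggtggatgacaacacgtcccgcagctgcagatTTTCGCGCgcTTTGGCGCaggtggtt
E2F7: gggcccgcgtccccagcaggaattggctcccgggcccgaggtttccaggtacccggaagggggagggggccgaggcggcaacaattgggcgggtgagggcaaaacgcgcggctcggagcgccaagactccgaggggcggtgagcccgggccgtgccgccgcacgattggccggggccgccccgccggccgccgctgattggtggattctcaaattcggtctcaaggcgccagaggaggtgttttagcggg

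The E2F1 window held an E2F word in reverse whose first base lies at -33 from the start and another forward at -20, the RBL1 window held forward words at -26 and -16, and the E2F2 window held a forward word at -42. No word overlapped another. E2F3 carried a reverse word at -53 in 1 of its windows, and the E2F7 window held no such word. In all, 4 of the 10 member windows held an E2F word, against 2.79% of 35116 promoter windows of the same length and 13 of the 44 windows of the E2F targets listed below (29.5%). The CCAAT box, read as CCAAT on either strand, occurred in 4 of the 10 member windows, those of E2F1, E2F3, E2F7 and RBL2, in 32.0% of all windows and in 31 of the 44 target windows (70.5%). The retinoic acid response element, searched as direct repeats spaced by 1, 2 or 5 bases, was found in 0 of the 10 member windows and in 0.202% of all. These matches describe the letters of the windows and show neither binding nor its absence.

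In the control libraries, E2F4 was the most abundant member and E2F1 came next. E2F4 stood at 159.8 TPM in PK-1 cells and 103 TPM in Panc-1 cells, and E2F1 at 68.6 and 93.9 TPM. The other members lay between 4.56 TPM (E2F2) and 33.4 TPM (RB1) in PK-1, and between 7.56 TPM (E2F7) and 24.8 TPM (E2F3) in Panc-1. E2F7, RBL2 and RBL1, at 17.4, 17.3 and 17.2 TPM in PK-1, lay too close to be ordered. The activators were higher in Panc-1, by log2 differences of 0.45 for E2F1, 1.01 for E2F2 and 0.93 for E2F3. The repressor E2F5 was higher there too, at 18.7 TPM against 8.87 TPM in PK-1. E2F4, E2F7, E2F8 and all 3 pocket proteins were higher in PK-1, by log2 differences of -0.55 (RBL2) to -1.11 (E2F7), Panc-1 over PK-1. Only E2F2, E2F5 and E2F7 were more than 2-fold apart, and E2F5 was just at that limit. These are 3 of 10 members, beside 30.3% of the 14618 entries above the floor in a control, so the members did not stand apart from other genes.

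**Figure D1:**
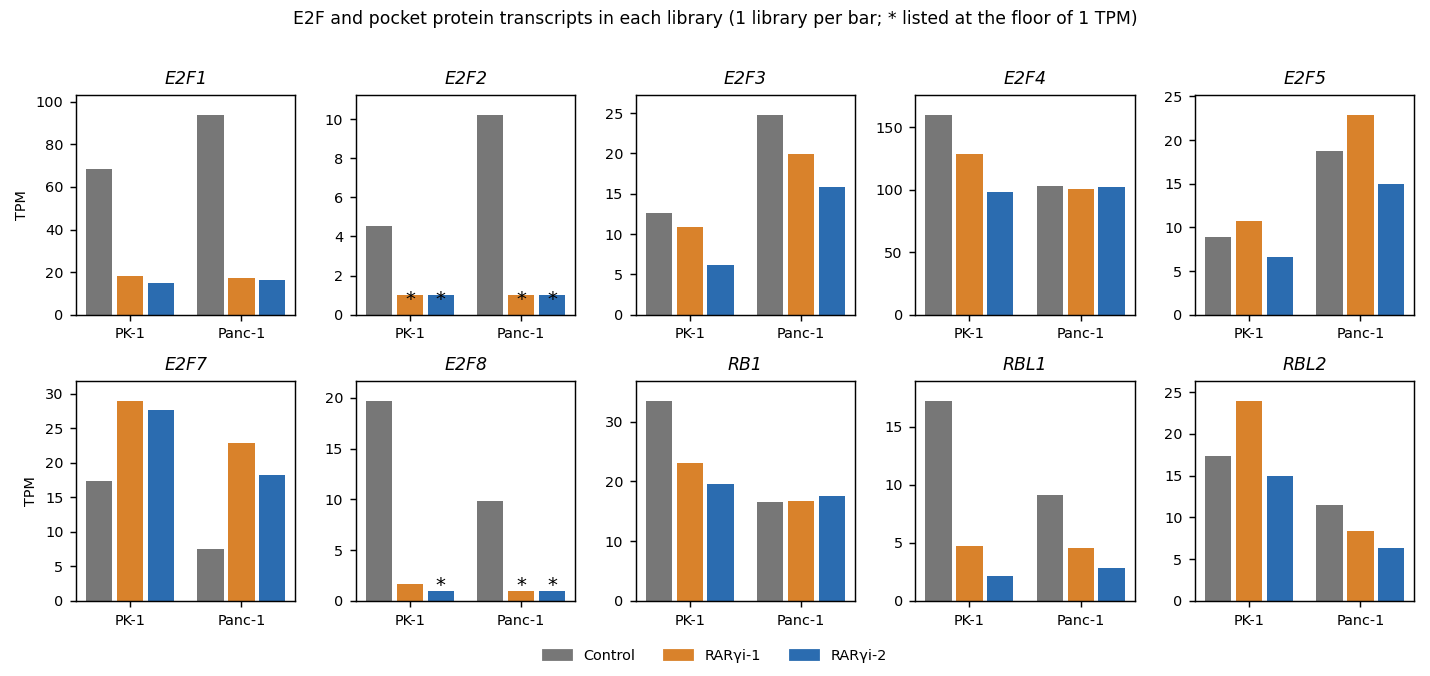
TPM of the 10 members in the control (grey), RARγi-1 (orange) and RARγi-2 (blue) library of PK-1 and Panc-1, 1 library per bar, each panel with its own axis from 0; an asterisk marks the floor of 1 TPM. E2F1, E2F2, E2F8 and RBL1 are lower in all 4 treated libraries than in the control of their line, E2F7 is higher in all 4, and E2F4 and RB1 stay near their control in Panc-1.

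In treated cells the family split. In PK-1, 4 of the 10 members fell with RARγi-1 and 4 with RARγi-2, E2F1, E2F2, E2F8 and RBL1 each time. Over all 14269 entries above the floor in PK-1, 4.85% fell with RARγi-1 and 12.3% with RARγi-2. In Panc-1, E2F1, E2F2 and E2F8 fell with RARγi-1, and RBL1 joined them with RARγi-2, which makes 3 and 4 of 10 beside 5.96% and 11% of 14184 entries. No member rose in PK-1, where 9.05% and 11.9% of the entries did. In Panc-1, E2F7 alone rose with each inhibitor, 1 of 10 beside 7.3% and 8.34%, a share near that of all entries. The median log2 fold change of the 10 members was -0.42 and -0.83 in PK-1 cells and -0.36 and -0.69 in Panc-1 (RARγi-1 and RARγi-2), and that of all entries above the floor lay between -0.01 and 0.13. The study displayed E2F1, E2F2, RBL1 and TFDP1 among genes that fell in these libraries, so their direction is not independent of that choice. In bulk RNA, fewer cells in a phase of the cell cycle and less RNA per cell cannot be told apart.

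**Figure D2:**
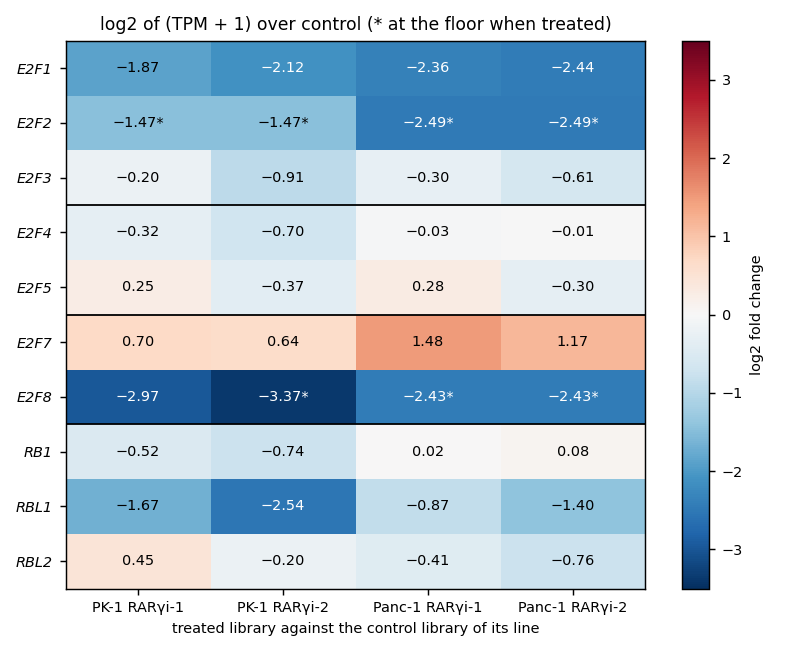
Log2 fold change on the (TPM + 1) scale of each member (rows; activators, E2F4 and E2F5, E2F7 and E2F8, and pocket proteins set apart by lines) in each treated library against the control of its line (columns), with blue for lower and red for higher. E2F1, E2F2 and E2F8 lie between -1.47 and -3.37 in every column, RBL1 between -0.87 and -2.54, and E2F7 between 0.64 and 1.48; an asterisk marks a treated library at the floor.

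Among the activators, E2F1 and E2F2 fell in all 4 comparisons. E2F3 fell in none on the (TPM + 1) scale and in PK-1 RARγi-2 without a pseudocount. E2F1, the activator best known for driving entry into the S phase, stood at 68.6 TPM in the PK-1 control, 18.1 with RARγi-1 and 15.0 with RARγi-2. In Panc-1 it stood at 93.9, 17.4 and 16.4 TPM. The 4 treated libraries thus lay within 15.0 to 18.1 TPM although the controls differed, and kept 17.5% to 26.4% of their control's level. The log2 fold change was -1.87 and -2.12 in PK-1 cells and -2.36 and -2.44 in Panc-1 cells, each past the spread, and at most 2.57% of entries in a comparison had a lower value (PK-1 RARγi-2). E2F2, the least abundant activator, went from 4.56 TPM in the PK-1 control and 10.2 TPM in the Panc-1 control to the floor in all 4 treated libraries. A fold to the floor rests on the pseudocount, which gave -1.47 in PK-1 and -2.49 in Panc-1 with either inhibitor; without a pseudocount the differences to 1 TPM were -2.19 and -3.35, which are limits, since the treated level may be lower.

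E2F3, the activator with the smallest change, kept most of its level with RARγi-1. It stood at 12.6, 10.8 and 6.21 TPM in PK-1 and at 24.8, 20.0 and 15.9 TPM in Panc-1, in the order control, RARγi-1 and RARγi-2. Its log2 fold changes with RARγi-1, -0.20 and -0.30, lay within the spread, and those with RARγi-2, -0.91 and -0.61, lay past it. The PK-1 value with RARγi-2 was short of 2-fold on the (TPM + 1) scale and just past it without a pseudocount (-1.02), which would make 5 members that fell in that comparison. E2F3 gave more transcripts than E2F1 in Panc-1 RARγi-1 (20.0 vs. 17.4 TPM) and nearly as many in Panc-1 RARγi-2 (15.9 vs. 16.4 TPM), where the E2F1 level of the control had been well above it (93.9 vs. 24.8 TPM).

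E2F4 and E2F5, the repressors that act with pocket proteins, fell in no comparison. E2F4 stood at 159.8, 128 and 98.3 TPM in PK-1 and at 103, 100.8 and 102 TPM in Panc-1. In Panc-1 the 3 libraries lay within a few TPM of each other, with log2 fold changes of -0.03 and -0.01. In PK-1 they were -0.32, within the spread, and -0.70, past it. E2F4 remained the most abundant member in all 6 libraries. E2F5 stood at 8.87, 10.8 and 6.65 TPM in PK-1 and at 18.7, 22.9 and 15.0 TPM in Panc-1. It was above the control with RARγi-1 in both lines (0.25 and 0.28) and below it with RARγi-2 in both (-0.37 and -0.30), all 4 within the spread, and rescaling by median ratios left these signs in place. On the other strand of E2F5, GENCODE 29 places C8orf59, listed at 112, 123 and 83.8 TPM in PK-1 and at 79.8, 79.4 and 73.1 TPM in Panc-1. The library kit keeps the strand, but whether the counting used it is not given in the sources used here, and then reads of the overlapping ends cannot be told apart.

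The atypical repressors moved in opposite directions. E2F8 fell furthest of all members in PK-1: it stood at 19.7 TPM in the control, 1.64 with RARγi-1 and at the floor with RARγi-2. In Panc-1 it went from 9.81 TPM to the floor with both inhibitors. The log2 fold change was -2.97 and -3.37 in PK-1 cells and -2.43 with either inhibitor in Panc-1, and in PK-1 RARγi-1 only 0.0420% of entries had a lower value. E2F7, the close relative with which E2F8 can pair, stood at 17.4, 28.9 and 27.7 TPM in PK-1 and at 7.56, 22.8 and 18.2 TPM in Panc-1. All 4 treated libraries lay above all values of the controls, which were 17.4 TPM or less. It rose in Panc-1, by log2 fold changes of 1.48 and 1.17, where 97.5% and 93.8% of entries had a lower value. In PK-1 the values were 0.70 and 0.64, past the spread and short of 2-fold, and 82.6% and 78.9% of entries had a lower value. E2F7 was the second most abundant member in both RARγi-2 libraries and in PK-1 RARγi-1, and level with E2F5 behind E2F4 in Panc-1 RARγi-1 (22.8 vs. 22.9 TPM). The ratio of E2F7 to E2F8 transcripts was 0.886 in the PK-1 control and 0.771 in the Panc-1 control. It was 17.7 in PK-1 RARγi-1 and at least 27.7, 22.8 and 18.2 in PK-1 RARγi-2, Panc-1 RARγi-1 and Panc-1 RARγi-2, where E2F8 was at the floor. Neither E2F7 nor E2F1 and E2F2 overlap another gene in GENCODE 29, and E2F8 overlaps only an antisense transcript.

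Set against each other as classes, activators had a lower median fold change than repressors in all 4 comparisons. The median log2 fold change of the 3 activators was -1.47 and -1.47 in PK-1 cells and -2.36 and -2.44 in Panc-1, and that of the 4 repressors was -0.03 and -0.53 in PK-1 cells and 0.12 and -0.16 in Panc-1. The activator median minus the repressor median was thus -1.44 and -0.94 in PK-1 cells and -2.49 and -2.29 in Panc-1. The PK-1 activator median is that of E2F2 at the floor, and so rests on the pseudocount: without it the difference was -1.90 and -1.63. With means in place of medians the difference was -0.60 and -0.55 in PK-1 cells and -1.54 and -1.45 in Panc-1 (RARγi-1 and RARγi-2). These medians hide the E2F3, E2F7 and E2F8 values, and the repressor median was that of E2F4 and E2F5 in every comparison. With E2F7 and E2F8 alone as repressors the difference shrank to -0.34 and -0.11 in PK-1, both smaller than the spread of 0.41. In Panc-1 it shrank to -1.89 and -1.81.

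TPM is counted per transcript length, so the levels of the 7 E2F genes can be added within a library. The activators together gave 85.7 TPM in the PK-1 control and 29.9 and 22.2 TPM in the treated libraries, and 129 against 38.4 and 33.3 TPM in Panc-1. E2F4 and E2F5 together gave 169, 139 and 105 TPM in PK-1 and 122, 124 and 117 TPM in Panc-1. The activators' share of E2F transcripts went from 29.4% to 15.0% and 14.2% in PK-1, and from 48.1% to 20.7% and 19.6% in Panc-1. Thus the Panc-1 control, which had activators and repressors nearly level at a ratio of 0.926, came to ratios of 0.260 and 0.244, and the PK-1 control went from 0.416 to 0.176 and 0.166. E2F7 and E2F8 together gave 37.1, 30.6 and 28.7 TPM in PK-1 and 17.4, 23.8 and 19.2 TPM in Panc-1, nearly all of it E2F7 in the treated libraries.

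**Figure D3:**
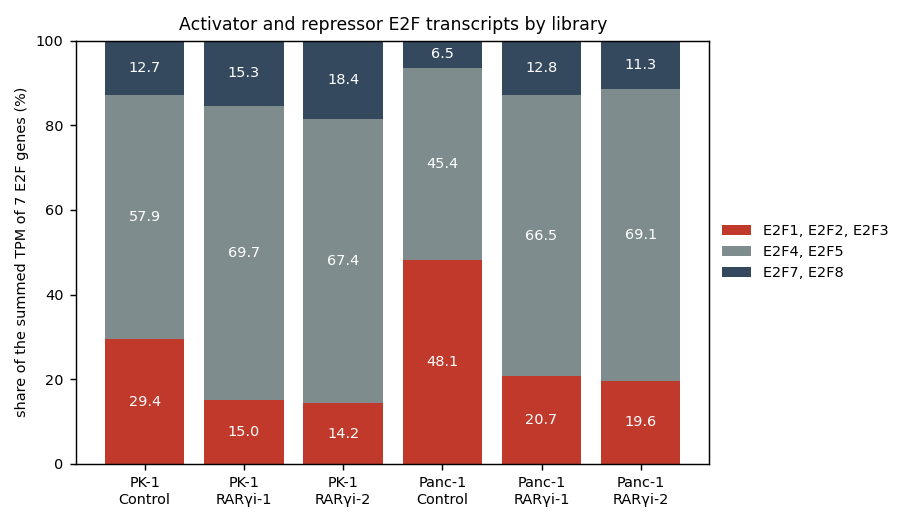
Share (%) of the summed TPM of the 7 E2F genes held by the activators (red), by E2F4 and E2F5 (grey) and by E2F7 and E2F8 (dark blue) in each of the 6 libraries, 1 library per bar. The activator share is 29.4% and 48.1% in the PK-1 and Panc-1 controls and between 14.2% and 20.7% in the treated libraries, and that of E2F4 and E2F5 is higher in each treated library than in its control.

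Of the pocket proteins, RBL1 fell in 3 of the 4 comparisons on the (TPM + 1) scale and RB1 and RBL2 in none. RBL1, the pocket protein that prefers E2F4 and that growing cells make, stood at 17.2, 4.71 and 2.13 TPM in PK-1 and at 9.14, 4.54 and 2.84 TPM in Panc-1. The log2 fold change was -1.67 and -2.54 in PK-1 cells and -0.87 and -1.40 in Panc-1. All 4 lay past the spread, and the Panc-1 value with RARγi-1 was short of 2-fold. Without a pseudocount it was -1.01, so that RBL1 would have fallen in all 4 and 4 members in that comparison. RB1, the retinoblastoma protein, stood at 33.4, 23.0 and 19.6 TPM in PK-1 and at 16.5, 16.8 and 17.6 TPM in Panc-1. Treated PK-1 cells thus came close to the level of Panc-1 cells, with log2 fold changes of -0.52 and -0.74, past the spread. In these comparisons 13.5% and 18.0% of entries had a lower value. The Panc-1 values of 0.02 and 0.08 lay within the spread, and the first became -0.06 after rescaling by median ratios.

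RBL2, the pocket protein known from resting cells, stood at 17.3, 23.9 and 14.9 TPM in PK-1 and at 11.5, 8.39 and 6.38 TPM in Panc-1. It was higher with RARγi-1 in PK-1 (0.45) and lower in the other 3 comparisons (-0.20, -0.41 and -0.76), of which -0.20 lay within the spread. On the other strand, RBL2 overlaps AKTIP, which was higher in every treated library, with log2 fold changes of 0.74 to 0.99. AKTIP stood at 24.5, 41.7 and 49.7 TPM in PK-1 and at 18.5, 33.2 and 34.7 TPM in Panc-1, above RBL2 in each library. RB1 overlaps LPAR6 and RCBTB2 on the other strand, both at 5.08 TPM or less. E2F3, RB1, RBL1 and RBL2 each hold 1 noncoding gene or pseudogene on their own strand, whose reads could be counted with theirs. The summed level of the 3 pocket proteins was 67.9, 51.7 and 36.6 TPM in PK-1 and 37.1, 29.7 and 26.8 TPM in Panc-1. Within it the RBL1 share went from 25.3% to 9.11% and 5.82% in PK-1 and from 24.6% to 15.3% and 10.6% in Panc-1. RB1 and RBL2 made up the rest, with RB1 at 44.4% to 65.6% over the 6 libraries.

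The inhibitor libraries of a line were also set side by side. No member was more than 2-fold lower with RARγi-2 than with RARγi-1, beside 4.4% of entries in PK-1 and 2.08% in Panc-1; without a pseudocount RBL1 was so in PK-1. RBL1 had the largest difference in PK-1 (-0.87, log2 of RARγi-2 over RARγi-1), followed by E2F3 (-0.71), RBL2 (-0.65) and E2F5 (-0.62). E2F5 (-0.58) and RBL1 (-0.53) had the largest in Panc-1. All of these lay past the spread of their line. The spread is the robust standard deviation of this same difference, so many other entries lie past it too. For E2F1 the inhibitors differed by -0.26 in PK-1 and -0.08 in Panc-1, within the spread. E2F2, and E2F8 in Panc-1, were at the floor with both, so no difference could be seen. Since the doses are not stated, these values compare the libraries and not the compounds.

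Of the dimer partners, 1 fell. TFDP1, the main DP protein that E2F1 to E2F6 need to bind DNA, fell in all 4 comparisons: it stood at 236, 85.7 and 55.5 TPM in PK-1 and at 70.8, 21.4 and 20.2 TPM in Panc-1. The log2 fold changes were -1.45, -2.07, -1.68 and -1.76. TFDP2, the other DP gene expressed here, stayed between -0.42 and -0.01, and TFDP3 was at the floor in all 6 libraries. E2F6, a repressor that acts with Polycomb proteins and no pocket protein, stood at 14.1, 21.2 and 22.3 TPM in PK-1 and at 29.5, 32.2 and 34.6 TPM in Panc-1. Its log2 fold changes, 0.55, 0.63, 0.12 and 0.22, were all short of 2-fold.

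The MuvB core joins RBL1 or RBL2 and E2F4 in the DREAM complex of resting cells, and MYBL2 and FOXM1 in dividing cells. Of the 8 genes listed, 3 fell in all 4 comparisons, the partners MYBL1, MYBL2 and FOXM1. MYBL2 stood at 63.7, 13.1 and 5.16 TPM in PK-1 and at 225, 52.2 and 28.4 TPM in Panc-1, and FOXM1 at 155, 45.5 and 20.5 and at 93.8, 33.8 and 20.4 TPM. Of the 5 core genes, LIN9 fell only in PK-1 with RARγi-2 (-1.67), LIN52, LIN54 and RBBP4 lay between -0.55 and 0.11, and LIN37 rose in all 4 (just at the limit, 1.48, 1.48 and 2.20). LIN37 overlaps another gene on the same strand in GENCODE 29, so its values are uncertain. Of 9 corepressors that pocket proteins recruit, SUV39H1, a histone methyltransferase, fell in all 4 (-1.09, -1.89, -1.20 and -1.35), while HDAC1 did so only in Panc-1 with RARγi-2 (-1.22) and HDAC2 only in PK-1 with RARγi-2 (-1.01).

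Upstream, the 8 genes of the kinases and cyclins that phosphorylate pocket proteins had 2, 8, 3 and 5 members that fell (PK-1 RARγi-1, PK-1 RARγi-2, Panc-1 RARγi-1, Panc-1 RARγi-2), beside 4.85%, 12.3%, 5.96% and 11% of all entries. CDK2 and its cyclin CCNE2 fell in all 4, CDK2 from 160.1 to 51.6 and 17.1 TPM in PK-1 cells and from 94.7 to 34.5 and 19.7 TPM in Panc-1. CCND2, a D cyclin, went the other way in Panc-1, from the floor to 6.71 and 6.72 TPM, which is why 1 gene of the list rose there. Of the 7 CDK inhibitors, CDKN1A (p21) rose in all 4, from 36.1 to 349.9 and 468 TPM in PK-1 cells and from 86.1 to 249.8 and 204 TPM in Panc-1. CDKN2C (p18), itself an E2F target, fell in all 4, with log2 fold changes of -1.56, -2.45, -2.95 and -2.53, and CDKN2A and CDKN2B were at the floor in all 6 libraries. SKP2 and CCNF, which direct cell cycle proteins to destruction, fell in all 4, and of the phosphatases that act on RB1, PPP1CC fell with RARγi-2 in both lines (-1.33 and -1.22).

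Downstream, the 36 listed E2F targets of DNA synthesis and the G1-S transition were mostly among the genes that fell. In PK-1 cells 32 and 35 of them fell, beside 4.85% and 12.3% of all entries. In Panc-1 cells 28 and 29 of them fell, beside 5.96% and 11%. None was past 2-fold higher, and 28 fell in all 4 comparisons, a count without a share of all entries beside it. The medians of the 36 targets were -1.83, -2.77, -1.61 and -2.05, beside medians of all entries between -0.01 and 0.13. RRM2, a subunit of ribonucleotide reductase, fell from 227 to 29.9 and 7.14 TPM in PK-1 cells and from 350.3 to 34.9 and 24.5 TPM in Panc-1. TYMS, which makes thymidylate, and UHRF1, which helps copy DNA methylation, had the next lowest means, -3.41 and -3.19 over the 4 comparisons. At the other end of the list were CHEK1 (-0.93), EZH2 (-0.43) and CDC6 (0.03). CDC6, which loads the replicative helicase, stood at 189, 132 and 128 TPM in PK-1 and at 42.8, 50.0 and 83.6 TPM in Panc-1. It was thus lower than the control in PK-1 and higher in Panc-1, though within the spread in Panc-1 RARγi-1 (0.22).

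The 18 listed G2-M genes of MYBL2, FOXM1 and MuvB followed. Of these, 17, 18, 16 and 17 fell, beside 4.85%, 12.3%, 5.96% and 11% of all entries. In all 4 comparisons 16 fell, a count without a share of all entries beside it. KIF20A, a kinesin of cytokinesis, TOP2A, a topoisomerase, and CDK1 had the lowest means (-3.24, -2.91 and -2.40), and CENPE, CCNB2 and CDC25C the highest (-1.72, -1.67 and -0.87). The 6 E2F1 targets of cell death reported here were mixed. Those that fell were 1, 2, 0 and 0, beside 4.85%, 12.3%, 5.96% and 11% of all entries. Those that rose were 2, 1, 2 and 3, beside 9.05%, 11.9%, 7.3% and 8.34% of all entries. CASP8AP2, APAF1 and TP73 had the lowest means (-0.89, -0.75 and -0.51). BBC3 and PMAIP1, death genes that p53 also induces, and BCL2L11, another death gene of the BCL2 family, had the highest (1.93, 1.20 and 0.42), and BCL2L11 rose in Panc-1 (1.01 and 1.16, the first 0.93 after rescaling by median ratios) and stood at -0.23 and -0.27 in PK-1 cells. Many genes of these lists were chosen for display by the study because they fell in these libraries, so the counts are not independent evidence of the direction.

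**Figure D4:**
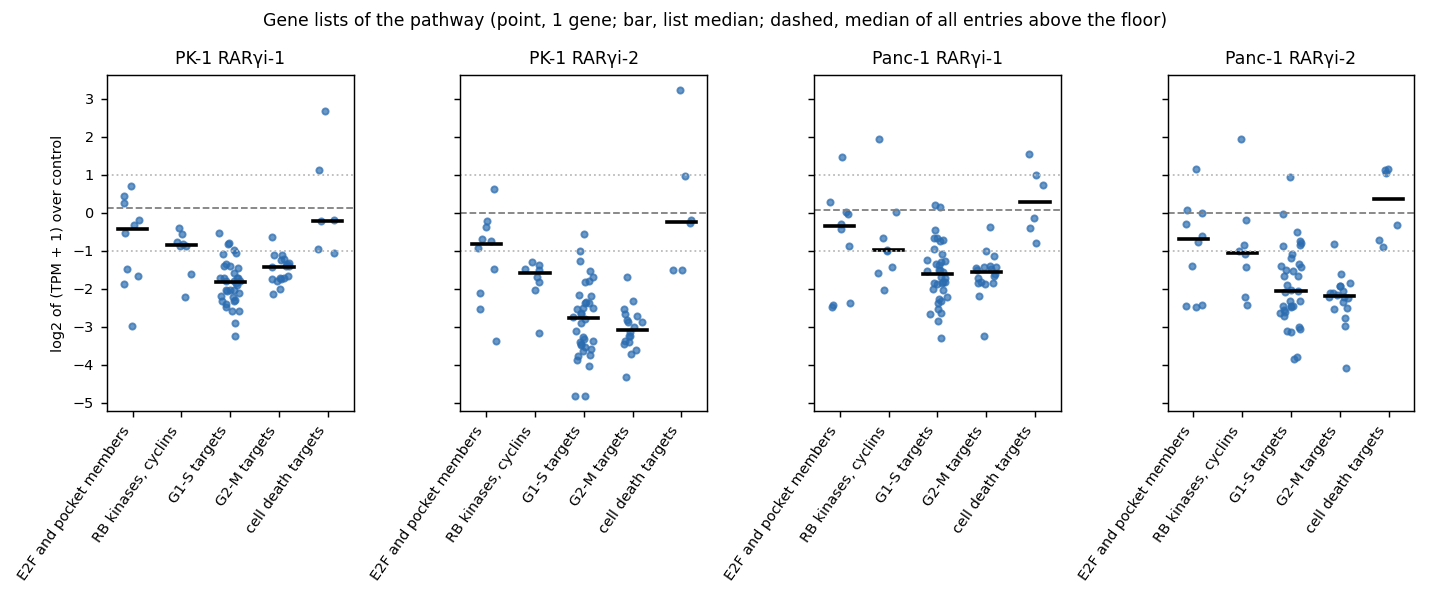
Log2 fold change on the (TPM + 1) scale of every gene (point) of the 10 members and of 4 lists of the pathway in each of the 4 comparisons, with the list median as a bar, the 2-fold limits dotted and the median of all entries above the floor dashed. The medians of the G1-S targets, -1.61 to -2.77, and of the G2-M targets, -1.41 to -3.08, lie below the lower limit in all 4 panels, and those of the 10 members, -0.36 to -0.83, do not.

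The genes whose 4 fold changes were most like those of a member, by mean absolute difference among 9903 entries with at least 5 TPM in a library of each line, were sought for E2F1, E2F8 and RBL1. The fold changes of a line share their control library, so the likeness is a description. For E2F1 the nearest was TK1, thymidine kinase (mean difference 0.0833), and then PEG10 (0.114), TMPO-AS1 (0.178), TGFB2 (0.185) and CAV1 (0.235). For E2F8 they were SCARA3 (0.214), MCM3 (0.260), MCM2 (0.277), PCLAF (0.317) and MCM4 (0.330), of which MCM2, MCM3 and MCM4 are subunits of the replicative helicase. For RBL1 they were RFC2 (0.0445), MCM8 (0.0866), NCAPG2 (0.113), MATN2 (0.127) and POLR3K (0.128). E2F8 itself was at the floor in 3 of its 4 treated libraries, and TMPO-AS1, TGFB2 and SCARA3 were at the floor in 2 or 3 libraries, so these matches rest partly on the pseudocount.

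The labelled cell type was checked by markers. Of 6 genes of duct epithelium (KRT7, KRT8, KRT18, KRT19, EPCAM and CDH1), 6 exceeded the floor in PK-1 cells and 5 in Panc-1 cells, where CDH1 was at the floor. Their summed level was 22498, 13507 and 14127 TPM in PK-1 and 8419, 1784 and 1485 TPM in Panc-1, lower in each treated library as the activator E2Fs were, and their part in the result was not tested. The sum is mostly keratins: CDH1 was higher in treated PK-1 cells (0.66 and 1.17), and EPCAM stood at -0.07 and -0.22 in PK-1 cells and at 0.51 and -0.50 in Panc-1 cells. Besides CDH1, 2 further duct markers were low in Panc-1. KRT7 stood at 4.19 TPM in the Panc-1 control against 5663 TPM in the PK-1 control, and EPCAM at 13.4 against 578 TPM. The endocrine (4 of 4) and endothelial (3 of 3) markers and the leukocyte markers PTPRC and CD3E were at the floor in all 6 libraries, as were 4 of 5 fibroblast markers (all but COL1A1) and at least 4 of 5 acinar markers (PRSS1 was above it in PK-1). The other leukocyte markers were above it: CD68, which other cells also make, at 19.8 TPM in control and 95.0 and 62.6 TPM in treated PK-1 cells and at 238 to 276 TPM in Panc-1 cells, and LYZ at 4.15 to 6.78 TPM.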

How the data were processed

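Total RNA of 6 cultures was sequenced with a stranded mRNA kit, and the submitters' processing notes name the build hg38. The aligner, the counting, its use of strand and the annotation are not given in the sources used here. The authors deposited log2 TPM values, in which 0 stands for 1 TPM or less. They were returned to TPM, and fold changes were taken with a pseudocount of 1 TPM, which makes them smaller for low genes. A change past 2-fold was called, and all counts were taken over entries above the floor in any library of the line. With 1 library per condition no test was run, and TPM keeps no depth. Alternatives were no pseudocount, a pseudocount of 0.1, a minimum of 5 TPM, median ratio rescaling, thresholds of 1.5-fold and 3-fold, floor values set to 0, other repressor sets and means for medians. The members and lists were chosen with earlier results of these data known. Named are all 10 members, genes of the partner and regulator lists past 2-fold the same way in all 4 comparisons, the 3 lowest and 3 highest of each target list, and the 5 nearest patterns of E2F1, E2F8 and RBL1; TFDP2, TFDP3, E2F6, LIN9, LIN52, LIN54, RBBP4, SUV39H1, HDAC1, HDAC2, CCND2, CDKN2A, CDKN2B, PPP1CC, C8orf59, AKTIP, LPAR6 and RCBTB2 were named after their values were seen. Some items of the cell death list are not reported here. Promoter windows came from RefSeq (GRCh38.p14) and overlaps from GENCODE 29. Python 3.11.15, numpy 2.4.6 and pandas 2.3.3 were used, and the fold computation was tested on simulated data.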

Additional observations from a re-analysis of the deposited data

Results flagged for a closer look

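The fold changes of E2F5 had opposite signs with the inhibitors. Its mean log2 fold change with RARγi-2 minus that with RARγi-1 was -0.60, with 0.25 and 0.28 for RARγi-1 and -0.37 and -0.30 for RARγi-2 (PK-1 and Panc-1). Each of these 4 values lay within the spread, and the difference between the inhibitors, -0.62 in PK-1 cells and -0.58 in Panc-1 cells, lay past it. The spread is the robust standard deviation of that same difference over entries, so passing it does not set E2F5 apart from other genes. The difference was not tested.

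The fold changes of 3 genes had opposite signs in the cell lines. For RB1, the mean in Panc-1 minus that in PK-1 was 0.68, from -0.52 and -0.74 in PK-1 cells and 0.02 and 0.08 in Panc-1, of which 0.02 became -0.06 after rescaling by median ratios. For CDC6 the difference was 1.12, from -0.52 and -0.55 in PK-1 cells and 0.22 and 0.95 in Panc-1. For BCL2L11 it was 1.34, from -0.23 and -0.27 in PK-1 cells and 1.01 and 1.16 in Panc-1, with the same signs after rescaling. None of these differences was tested, since each rests on 1 library per condition. Both Panc-1 values of RB1, both PK-1 values of BCL2L11 and the CDC6 value of Panc-1 RARγi-1 lay within the spread. The signs of those values are therefore uncertain.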

How the results depend on the processing

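Rescaling by median ratios moved none of 40 fold changes of members by more than the spread and none of 15 counts by more than 1.5 times: members apart between the controls went from 3 to 2, and G1-S targets that fell from 32 to 33 (PK-1 RARγi-1), 35 to 34 (PK-1 RARγi-2) and 28 to 29 (Panc-1 RARγi-1). No alternative turned a called direction. Without a pseudocount, 9 of the 40 moved, those of E2F2 (-2.19 for PK-1 and -3.35 for Panc-1) and E2F8 (-3.59 and -4.30 in PK-1, -3.29 in Panc-1) and that of RBL1 in PK-1 RARγi-2 (-3.01), all further down. The activator median minus the repressor median moved most. For PK-1 RARγi-1 it was -1.90 without a pseudocount, -1.90 with 0.1, -1.001 with a minimum of 5 TPM, -0.34 with E2F7 and E2F8 alone as repressors and -0.60 with means. For PK-1 RARγi-2 it was -1.63 without a pseudocount, -1.53 with 0.1 and -0.11 with E2F7 and E2F8 alone. For Panc-1 RARγi-1 and RARγi-2 it was -1.89 and -1.81 with E2F7 and E2F8 alone and -1.54 and -1.45 with means. At a threshold of 1.5-fold, 1 member rose with RARγi-1 and 1 with RARγi-2 in PK-1, 7 fell with RARγi-2 in PK-1, 4 were lower with RARγi-2 than with RARγi-1 in PK-1, and 8 differed between the controls. At 3-fold, 0 members rose in Panc-1 with RARγi-1 and 0 with RARγi-2, 0 differed between the controls, and 18 of the G1-S targets fell in Panc-1 RARγi-1. Without a pseudocount, 5 members differed between the controls, and 1 was more than 2-fold lower with RARγi-2 than with RARγi-1 in PK-1, as with a pseudocount of 0.1. The cause was not tested beyond the construction of each alternative. Each treated library was set against the control of its own line. The labels give no replicate numbers that conditions share, and a fit with the cell line as a block was not run.

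With 1 library per condition, biological and technical variation cannot be told apart from treatment, and the spread used as a yardstick leaves out what both treated libraries of a line share against their control. The depth is unknown, so values at the floor, among them those of E2F2 and most of E2F8 in treated cells, show only that 1 TPM was not exceeded. Transcript levels say nothing of the phosphorylation that governs pocket proteins.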
